A study of Mus musculus with 13 samples.

Results

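The cytochrome P450 enzymes of families 1 to 3, which oxidise drugs, steroids and fatty acids, were described in mouse liver across 3 genotypes of the deacetylase SIRT1. Members were chosen by name alone: every non-control probe whose gene name in the scanner files began with Cyp, a family number from 1 to 3, a subfamily letter and a gene number. That gave 43 genes with 66 probes, of 27962 gene names on the array. One probe stood for each gene, the brightest over the 13 arrays. The livers came from 5 TAKI, 3 TEKI and 5 WT mice, all male, on a C57BL/6 strain background and fed a fatty diet of the western type for 5 months. TAKI and TEKI mice carried a knock-in allele of SIRT1, labelled TA KI and TE KI, and WT mice carried wild-type SIRT1. The series is about threonine 522 of SIRT1, so TA is read here as alanine and TE as glutamate in its place. Age, zygosity and the number of founder lines are not given in the sources used here, and the alleles are not described as limited to the liver. The comparisons ask how the status of that residue bears on gene expression in fatty-diet liver, here in the drug-metabolising P450s.

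Most liver P450s of these families sit in the endoplasmic reticulum of hepatocytes and take electrons from P450 oxidoreductase, encoded by Por. Receptors for foreign compounds switch groups of them on. The aryl hydrocarbon receptor acts on family 1, and the nuclear receptors CAR and PXR act on the Cyp2b, Cyp2c and Cyp3a subfamilies. In mice many members also differ between the sexes, because the male and female rhythms of growth hormone secretion act on them through STAT5b. Several Cyp2c and Cyp2j enzymes make epoxides from arachidonic acid, and many members are confined to the hepatocytes around the central vein.

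Each liver was read on 1 Agilent 1-colour array, and a level below is the log2 of the authors' processed spot intensity minus the 75th percentile of that array. The 75th percentile of an array is 0 on this scale, and a step of 1 is a factor of 2. Since probes differ in brightness, levels are compared between mice for the same probe and not between probes. Of the 43 members, 42 were well above background on all 13 arrays and Cyp1b1 on 12, and none was saturated. All 6 hepatocyte markers looked up by name and found on the array were well above background on 13 arrays. The TEKI replicate 1 array stood apart, with 86.8% of its probes well above background, against 60.5% to 73.1% on the other 12. The 3 TEKI arrays shared a slide with WT replicate 5, whereas the TAKI arrays lay on 2 slides with no other genotype, so for TAKI the genotype cannot be told apart from the slide. Precision is limited by how few arrays there are, and TEKI has the fewest.

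Close paralogues may cross-hybridise, and the array's own probe sequences show where this is most likely. The 66 member probes, each of 60 bases, were compared with each other for shared runs of at least 15 bases. The probes of Cyp2a4 and Cyp2a5 shared a stretch of 38 bases with 3 mismatches. The first 30 bases of that stretch are printed with the differing bases in capitals, beside the first 30 bases of the only Cyp2c65 probe, the member on which the comparisons turn.
Cyp2a4 probe: aggacacTTCgtagacttgcagaggatatt
Cyp2a5 probe: aggacacAGAgtagacttgcagaggatatt
Cyp2c65 probe: gtctgcaattccctatgctatgcaatgatt
The Cyp2a4 probe also shared 20 identical bases with the second Cyp2a5 probe. The probes of Cyp2j11 and Cyp2j13 overlapped by 30 bases with 2 mismatches. Cyp2d13, annotated in RefSeq as a transcribed pseudogene, and Cyp2d26 had probes that matched over 60 bases with 25 mismatches. No shared run of that length was found between the probes of the other members, but transcripts of paralogues can still match a probe, and this was not tested here.

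Across the whole set, only Cyp2c65 passed the test in any comparison. It was higher in TAKI than in WT liver and lower in TEKI than in TAKI liver. In TAKI against WT, 1 of 43 members was called higher and 0 lower at an adjusted p below 0.05 by limma, against a background of 2.78% of the 20577 genes tested called in either direction. The other 42 had adjusted p-values of at least 0.159. In TEKI against WT, 0 of 43 members were called, where the background was 0.00486%, a single gene. In this comparison 3 of 43 members had an unadjusted p below 0.05 by limma, as did 2361 of the 20577 genes tested. In TEKI against TAKI, 0 members were called higher and 1 lower, with a background of 3.41%. A count of 1 in 43 lies near the background in both comparisons that involve TAKI, so it says nothing about the set as a whole.

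The size of the differences was small for most members. In TAKI minus WT the median over the 43 members was 0.06 on the log2 scale, against 0.00 over all genes tested, and 40 members lay within 0.5 of no difference. In TEKI minus WT the median was 0.10, against 0.08 over all genes, and 38 members lay within 0.5. In TEKI minus TAKI the median was 0.12, against 0.07, and 42 members lay within 0.5. The 95% interval of the difference lay wholly within 1 log2 unit for 31 members in TAKI minus WT, 28 in TEKI minus WT and 27 in TEKI minus TAKI. For the rest, Cyp2c65 among them, the interval reached past 1 log2 unit, so a change of that size was not excluded. In TAKI minus WT the interval of Cyp2c65, 1.13 to 2.38, lay wholly past 1 log2 unit. In whole liver, fewer cells of a type and less RNA per cell cannot be told apart.

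**Figure D1:**
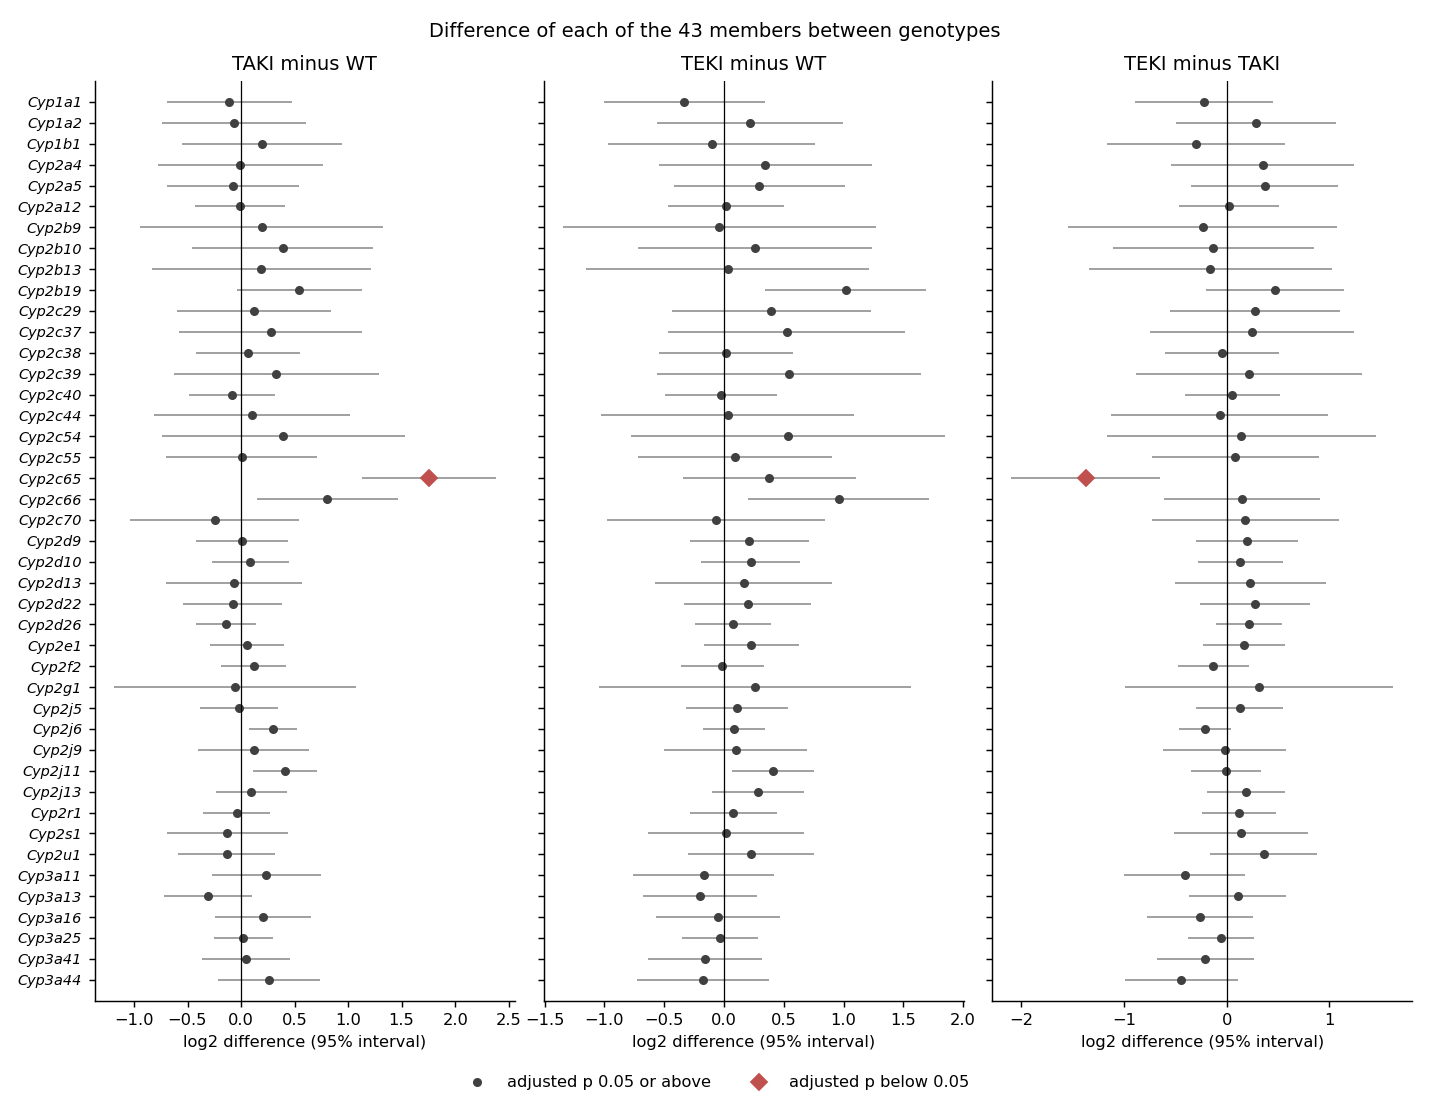
Difference of each of the 43 members on the log2 scale for the 3 comparisons (TAKI minus WT, TEKI minus WT, then TEKI minus TAKI), with the 95% interval from the linear model (5 TAKI, 3 TEKI and 5 WT mice). Red diamonds mark an adjusted p below 0.05, which only Cyp2c65 reached, at 1.75 in TAKI minus WT and -1.38 in TEKI minus TAKI.

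Cyp2c65, which lies in the Cyp2c cluster on chromosome 19 (39061006 to 39093948, GRCm38.p6) and is known mainly from the gut, was dim in every liver. The levels of Cyp2c65 were -2.62, -2.87, -2.03, -2.84 and -2.10 in the TAKI mice, -3.14, -4.75 and -3.71 in the TEKI mice and -3.83, -4.17, -4.20, -4.52 and -4.52 in the WT mice, in replicate order. All 5 TAKI values lay above every WT and every TEKI value, while the TEKI and WT values overlapped. The deposited intensities were 126 to 250.2 units in TAKI, 32.3 to 95.7 units in TEKI and 30.3 to 60.8 units in WT mice. The mean was -2.49 ± 0.40 in TAKI (SD, n = 5) and -4.25 ± 0.29 in WT livers (SD, n = 5). That is a log2 difference of 1.75 ± 0.29 (SE), or 3.37-fold, with an adjusted p of 0.00824 by limma. TEKI livers averaged -3.87 ± 0.82 (SD, n = 3), lower than TAKI by -1.38 ± 0.33 on the log2 scale with an adjusted p of 0.0420 by limma. The TEKI minus WT difference was 0.38 ± 0.33 with an adjusted p of 0.695 by limma. TAKI and WT did not overlap for 2 of 43 members (Cyp2c65 and Cyp2j6), against 7.37% of all genes tested. TEKI and TAKI did not overlap for Cyp2c65 alone, against 8.22% of all genes.

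Calls over all genes were unevenly spread over the array by direction, and Cyp2c65 lay where calls in its own direction were dense. Its probe lay in row 114 of 532. Of all genes called in TAKI against WT, 68.1% were higher in TAKI, a share that was 57.1% with median scaling, 84.3% on the scale of the deposited table and 27.9% with normexp background correction. Of the 390 genes called higher in TAKI than in WT, 382 had their probe in rows 1 to 266, as had 193 of the 195 genes called lower in TEKI than in TAKI. Calls in the other direction lay mostly in the other rows. Only 2 of the 183 genes called lower in TAKI than in WT lay in rows 1 to 266, and 16 of the 506 called higher in TEKI than in TAKI. Among the 4659 genes of those rows with a WT mean below -2, where Cyp2c65 belongs, 7.34% were called higher in TAKI. Among the 4415 equally dim genes of the other rows the share was 0.159%. Of the 18 members in rows 1 to 266, 4 were that dim. Besides Cyp2c65 these were Cyp2c66, at 0.81, Cyp1b1, at 0.19, and Cyp2s1, at -0.13 in TAKI minus WT. No other Cyp2c65 probe was on the array. The share of the Cyp2c65 difference that goes with its row was not tested.

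**Figure D2:**
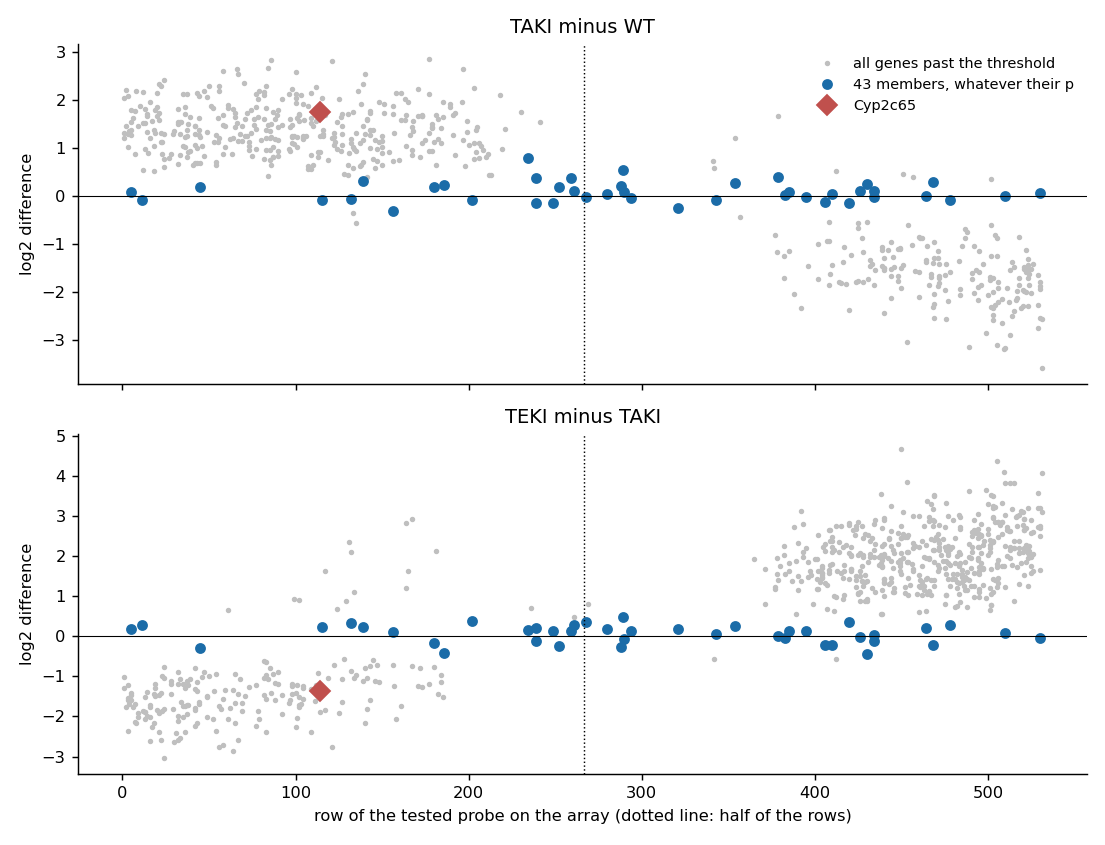
Difference on the log2 scale against the row of the tested probe on the array, for TAKI minus WT (top) and TEKI minus TAKI (bottom), with genes past the threshold in grey, the 43 members in blue and Cyp2c65 as a red diamond. The grey points above 0 in TAKI minus WT lie almost wholly in rows 1 to 266, where Cyp2c65 also lies. In that comparison Cyp2c66, at 0.81 in row 234, and Cyp2b19, at 0.54 in row 289, are the other members more than 0.5 from no difference.

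Among 5 lymphocyte markers, Cd2 was called higher in TAKI than in WT livers, with its probe in row 207, and all 5 had a difference above 0. Cd2, at 1.05, Cd79a, at 0.71 in row 212, and Cd8a, at 0.64 in row 39, had a WT mean below -2. Nkg7 gave 0.47 in row 367 and Cd3e 0.15 in row 343. Over all genes with a WT mean below -2 the median difference was 0.37 in rows 1 to 266 and 0.00 in the other rows. The mean of the 5 markers relative to WT lay at 0.46 to 0.79 in TAKI, -0.02 to 1.18 in TEKI and -0.11 to 0.18 in WT mice. Cd8a was well above background on 12 arrays and the other markers on 13. Their part in the Cyp2c65 result was not tested. The Cyp2c65 difference between TAKI and WT stayed past the threshold under all 25 alternative settings. With normexp background correction it was 0.71, against 1.75 in the main setting. The TEKI minus TAKI call of Cyp2c65 was kept under 8 of 25 alternatives and was lost when any 1 of 12 arrays was left out, TEKI replicate 1 being the exception, with adjusted p-values of up to 0.169 by limma over all alternatives.

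Cyp2c66, the neighbour of Cyp2c65 on chromosome 19 and also a gut-expressed member, had the second-largest TAKI minus WT difference but did not pass the test. For Cyp2c66, TAKI mice 1 to 5 read -3.19, -2.78, -2.67, -2.78 and -2.48, TEKI mice 1 to 3 read -2.33, -3.04 and -2.51, and WT mice 1 to 5 read -3.15, -3.34, -4.85, -3.36 and -3.22. WT replicate 3 lay far below the other WT mice, at -4.85 against -3.36 for the next. The TAKI and WT values overlapped, and the 3 TEKI values lay above all WT values. The differences were 0.81 ± 0.30 (SE) for TAKI minus WT, with an adjusted p of 0.222, and 0.96 ± 0.35 for TEKI minus WT, with an adjusted p of 0.397. Without WT replicate 3 they were 0.49 and 0.64. The promoters of Cyp2c65 and Cyp2c66 are 85.3% identical over 300 bases in RefSeq, while their levels, centred on the genotype means, had a Pearson r of 0.33 and a Spearman rho of 0.49 over 13 arrays.

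Cyp2j6 and Cyp2j11 belong to a subfamily of arachidonic acid epoxygenases on chromosome 4, and had the next smallest p-values in TAKI minus WT, without passing the test. Cyp2j6 had levels of 2.50, 2.43, 2.72, 2.48 and 2.66 in TAKI replicates 1 to 5, 2.10, 2.43 and 2.52 in TEKI replicates 1 to 3, and 2.32, 2.21, 2.23, 2.17 and 2.40 in WT replicates 1 to 5. The lowest TAKI value, 2.43, lay just above the highest WT value, 2.40, and TEKI replicate 1 was the lowest of all. The TAKI minus WT difference was 0.30 ± 0.10 (SE), or 1.23-fold, with an adjusted p of 0.179 by limma. The levels of Cyp2j11 were -2.21, -2.17, -1.86, -2.22 and -2.18 in the TAKI mice, -2.11, -2.17 and -2.12 in the TEKI mice and -2.38, -2.59, -3.0, -2.51 and -2.22 in the WT mice, in replicate order. All 3 TEKI values lay above all WT values, and TAKI replicate 3 stood above the other TAKI mice. The differences of Cyp2j11 were 0.41 ± 0.14 (SE) in TAKI minus WT, with an adjusted p of 0.159, and 0.41 ± 0.16 in TEKI minus WT, with an adjusted p of 0.401. In TEKI minus WT, 2 of 43 members (Cyp2c66 and Cyp2j11) did not overlap between the groups, against 3.64% of all genes. Under array weights Cyp2c66, Cyp2j6 and Cyp2j11 passed the threshold in TAKI minus WT, with adjusted p-values of 0.0487, 0.0148 and 0.0319 by limma.

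Cyp2b19, an epoxygenase known from skin, had the largest TEKI minus WT difference of the 43 members, 1.02 ± 0.31 (SE), with an adjusted p of 0.397. For Cyp2b19, TAKI mice 1 to 5 read -2.74, -2.99, -2.65, -3.25 and -2.83, TEKI mice 1 to 3 read -1.86, -3.03 and -2.37, and WT mice 1 to 5 read -2.95, -3.88, -4.08, -3.33 and -2.95. TEKI replicate 1 was the highest mouse, and the TEKI and WT values overlapped. The array of TEKI replicate 1 had 86.8% of its probes well above background, against 60.5% to 73.1% on the other 12. That mouse also had the highest mean of the pancreatic acinar markers, 2.15 relative to WT. The 4 markers ranged from 0.49 to 2.15 in TEKI, -0.39 to 0.85 in TAKI and -0.82 to 0.56 in WT mice as a mean per mouse. Of these, Cel was above background on 13 arrays, Prss2 on 10, Cpa1 on 4 and Pnlip on 3. The part of these markers, or of the array of TEKI replicate 1, in the level of Cyp2b19 was not tested.

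**Figure D3:**
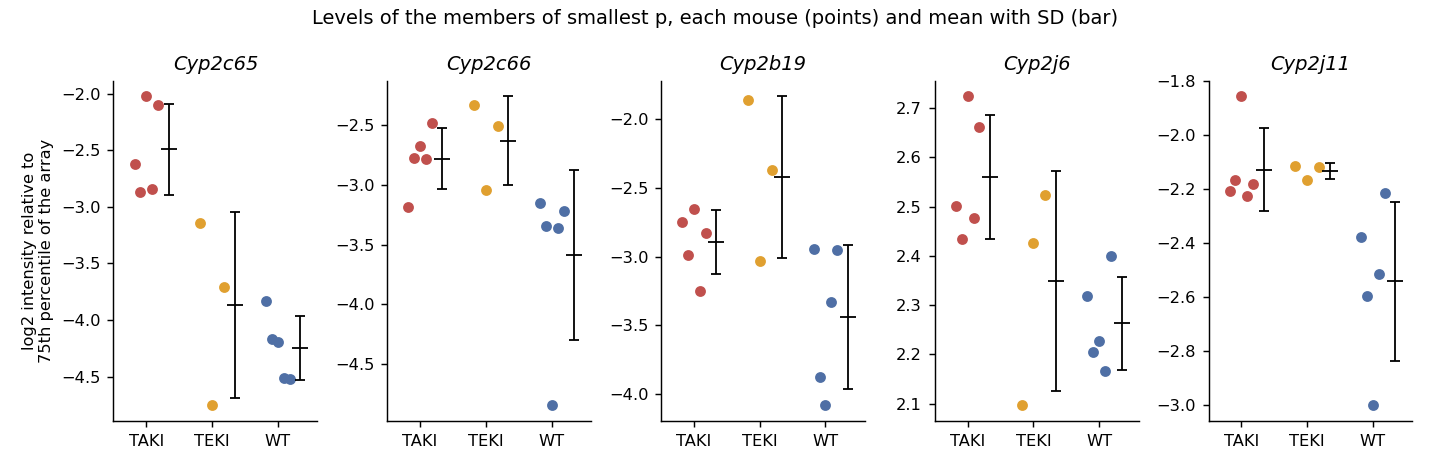
Levels (log2 intensity, with the array's 75th percentile at 0) of the 5 members of smallest p in TAKI, TEKI and WT livers, with each mouse as a point and the mean with SD as a bar (n = 5, 3 and 5). The 5 TAKI values of Cyp2c65 lie between -2.87 and -2.03, above all TEKI and WT values, while the groups lie closer together for the other 4 genes.

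The family 1 members, the classical targets of the aryl hydrocarbon receptor, showed 0 of 3 called in any comparison. Cyp1a2 had levels of 3.78, 2.45, 3.63, 3.41 and 3.54 in TAKI replicates 1 to 5, 3.54, 3.56 and 3.85 in TEKI replicates 1 to 3, and 2.95, 3.89, 3.37, 2.72 and 4.20 in WT replicates 1 to 5. In Cyp1a2, the constitutive liver member that metabolises caffeine, TAKI replicate 2 was the lowest mouse and WT replicate 5 the highest. The levels of Cyp1a1 were -4.16, -3.63, -3.23, -2.76 and -3.43 in the TAKI mice, -3.81, -3.55 and -3.64 in the TEKI mice and -4.03, -3.36, -3.33, -2.69 and -3.25 in the WT mice, in replicate order. Cyp1a1, the strongly inducible member, was low in TAKI replicate 1 and WT replicate 1 and high in WT replicate 4 and TAKI replicate 4. For Cyp1b1, TAKI mice 1 to 5 read -4.11, -2.54, -3.96, -3.25 and -3.54, TEKI mice 1 to 3 read -3.54, -3.32 and -4.47, and WT mice 1 to 5 read -4.12, -4.06, -3.14, -3.09 and -3.96. Cyp1b1, which hydroxylates oestrogens and is known from cells other than hepatocytes, was highest in TAKI replicate 2, the mouse where Cyp1a2 was lowest. The TAKI minus WT differences were -0.07 ± 0.31 for Cyp1a2, -0.11 ± 0.27 for Cyp1a1 and 0.19 ± 0.34 for Cyp1b1 (SE). The TEKI minus WT differences were 0.22 ± 0.36, -0.33 ± 0.31 and -0.10 ± 0.40 in the same order.

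The Cyp2a genes on chromosome 7 varied together from mouse to mouse, and 0 of them were called in any comparison. Cyp2a5 had levels of 8.38, 7.86, 8.66, 8.57 and 8.51 in TAKI replicates 1 to 5, 8.73, 8.49 and 9.10 in TEKI replicates 1 to 3, and 7.52, 8.33, 8.79, 8.46 and 9.28 in WT replicates 1 to 5. Cyp2a5 is the coumarin hydroxylase, and WT replicates 1 and 5 were its lowest and its highest mouse. The levels of Cyp2a4 were 7.24, 6.75, 7.58, 7.75 and 7.54 in the TAKI mice, 7.73, 7.44 and 8.01 in the TEKI mice and 6.10, 7.26, 7.78, 7.39 and 8.37 in the WT mice, in replicate order. Cyp2a4, a steroid hydroxylase higher in female than in male mice, had its lowest and its highest value in the same mice. The pair correlated with a Pearson r of 0.99 and a Spearman rho of 0.94 over 13 arrays after centring on genotype. Their probes share the stretch printed above, so part of each signal may come from the other transcript. The differences were -0.08 ± 0.28 for Cyp2a5 and -0.01 ± 0.35 for Cyp2a4 in TAKI minus WT, and 0.29 ± 0.33 and 0.35 ± 0.41 in TEKI minus WT (SE). Without WT replicate 1 the TAKI minus WT values were -0.32 for Cyp2a5 and -0.33 for Cyp2a4, still with adjusted p-values of 0.601 and 0.650 by limma. Without that mouse the TEKI minus WT values were 0.06 for Cyp2a5 and 0.03 for Cyp2a4, and within the slide shared with WT replicate 5 they were -0.51 and -0.65.

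Cyp2b9 and Cyp2b13, both known as female-biased in mouse liver, and Cyp2b10, the standard CAR target, were among the members with the widest spread between mice of 1 genotype. For Cyp2b9, TAKI mice 1 to 5 read 3.05, 4.10, 5.26, 5.37 and 3.81, TEKI mice 1 to 3 read 4.68, 4.43 and 3.14, and WT mice 1 to 5 read 3.19, 5.24, 3.86, 4.61 and 3.72. Its highest and lowest values, 5.37 and 3.05, both came from TAKI mice and differ 4.99-fold. Cyp2b13 had levels of 0.97, 1.90, 2.94, 3.12 and 1.62 in TAKI replicates 1 to 5, 2.47, 2.24 and 1.15 in TEKI replicates 1 to 3, and 1.03, 2.91, 1.72, 2.37 and 1.57 in WT replicates 1 to 5. The same mice stood high and low, with TAKI replicates 3 and 4 and WT replicate 2 at the top, and TAKI replicate 1, TEKI replicate 3 and WT replicate 1 at the bottom. The levels of Cyp2b10 were -1.15, -0.95, 0.21, 0.29 and -0.96 in the TAKI mice, -0.22, -0.61 and -1.10 in the TEKI mice and -1.78, 0.08, -1.06, -0.54 and -1.20 in the WT mice, in replicate order. Cyp2b10 followed that order in part. The TAKI minus WT differences were 0.19 ± 0.52, 0.19 ± 0.47 and 0.39 ± 0.39 for Cyp2b9, Cyp2b13 and Cyp2b10 (SE). The TEKI minus WT differences were -0.04 ± 0.60, 0.03 ± 0.54 and 0.26 ± 0.45, and all adjusted p-values were at least 0.736 in these 2 comparisons.

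After centring on genotype, the Pearson r over 13 arrays was 1.00 between Cyp2b9 and Cyp2b13 and 0.96 between Cyp2b9 and Cyp2b10, with Spearman rho of 0.98 and 0.97. Without the 2 mice farthest from the median of Cyp2b9 the Pearson r was 1.00 and 0.94. The Cyp2b10 values rest on its brightest probe. A dimmer Cyp2b10 probe in row 197, well above background on 13 arrays, followed that probe with an r of only 0.42. TAKI replicate 1 was the highest TAKI mouse on the dimmer probe, at -2.12, and the lowest on the brightest, at -1.15. Cyp2b19, on the same chromosome, did not go along, with an r of -0.30 and a rho of -0.23 against Cyp2b9. These pairs were picked after all 903 pairs of members had been seen, so no p is given. Because Cyp2b9 and Cyp2b13 moved together so closely, their promoters are printed with that of Cyp2b10, each from 250 bases before to 50 bases after the start, on the plus strand, from RefSeq (GRCm38.p6). Capitals in Cyp2b9 and Cyp2b13 mark the bases that differ between these 2. Capitals in Cyp2b10 mark the bases not paired with an identical base of Cyp2b9 in an alignment that allowed gaps.
Cyp2b9 (chr7:26173159-26173458): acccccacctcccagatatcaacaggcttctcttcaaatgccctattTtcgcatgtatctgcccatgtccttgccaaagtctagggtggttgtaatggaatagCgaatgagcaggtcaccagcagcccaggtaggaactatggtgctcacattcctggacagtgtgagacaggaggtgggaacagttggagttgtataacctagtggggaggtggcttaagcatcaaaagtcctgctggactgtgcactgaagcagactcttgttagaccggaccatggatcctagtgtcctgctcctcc
Cyp2b13 (chr7:26061245-26061544): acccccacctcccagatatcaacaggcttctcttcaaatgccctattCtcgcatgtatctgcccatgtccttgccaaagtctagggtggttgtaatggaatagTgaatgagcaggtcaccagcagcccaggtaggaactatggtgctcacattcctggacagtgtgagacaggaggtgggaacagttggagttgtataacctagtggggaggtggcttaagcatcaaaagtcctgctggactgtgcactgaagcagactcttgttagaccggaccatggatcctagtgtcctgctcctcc
Cyp2b10 (chr7:25897408-25897707): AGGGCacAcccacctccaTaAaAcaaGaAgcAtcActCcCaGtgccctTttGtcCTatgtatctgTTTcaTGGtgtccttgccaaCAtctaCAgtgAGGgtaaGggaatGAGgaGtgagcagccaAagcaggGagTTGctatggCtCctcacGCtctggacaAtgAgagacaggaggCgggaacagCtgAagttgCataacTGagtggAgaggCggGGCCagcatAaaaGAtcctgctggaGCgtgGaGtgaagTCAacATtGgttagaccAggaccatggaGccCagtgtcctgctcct
The first 2 promoters are identical at 298 of 300 positions. The alignment of Cyp2b9 with Cyp2b10, which allowed gaps, paired 223 of 300 bases with an identical base. The brightest Cyp2b9 and Cyp2b13 probes shared no run of 15 bases, but whether the transcript of either gene binds the other probe was not tested. A dimmer Cyp2b13 probe in row 226 followed its brightest probe with an r of 0.96. In TAKI minus WT it gave 0.68, against 0.19. A dimmer Cyp2b9 probe in row 3 followed its brightest probe with an r of 1.00 and gave 0.21, against 0.19. The letters AGGTCA, the core element of many nuclear receptor sites, occur once on either strand in the Cyp2b9 and the Cyp2b13 promoter and not in that of Cyp2b10. They occur in 16.3% of 32851 RefSeq promoters of this length and in 13 of the 37 members searched. The letters TTCNNNGAA, the STAT core element, occur in 8.30% of all promoters and in 1 of 37 members, none of them a Cyp2b gene printed here. The letters GCGTG, the core bound by the aryl hydrocarbon receptor, occur in 32.4% of all promoters, in 6 of 37 members, and among these in Cyp1a1 (1 match) and Cyp2b10 (2 matches). A match of letters is a description and not a site.

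Of the Cyp2c epoxygenases on chromosome 19, Cyp2c29, Cyp2c37, Cyp2c39 and Cyp2c54 lie in the cluster and moved as a block between mice. Cyp2c44, which lies apart from the cluster at 44005022 to 44029256, varied much like them and is given beside them. For Cyp2c29, TAKI mice 1 to 5 read 6.68, 5.20, 6.41, 5.95 and 5.97, TEKI mice 1 to 3 read 6.40, 5.90 and 6.65, and WT mice 1 to 5 read 5.53, 5.52, 5.97, 5.61 and 6.99. Cyp2c37 had levels of 6.80, 4.83, 6.76, 5.95 and 5.94 in TAKI replicates 1 to 5, 6.31, 5.93 and 6.66 in TEKI replicates 1 to 3, and 5.59, 5.29, 5.85, 5.33 and 6.83 in WT replicates 1 to 5. The levels of Cyp2c39 were 4.94, 2.95, 4.92, 4.00 and 4.10 in the TAKI mice, 4.33, 4.00 and 4.87 in the TEKI mice and 3.61, 3.26, 3.83, 3.35 and 5.21 in the WT mice, in replicate order. In all 3 genes TAKI replicate 2 was the lowest mouse and WT replicate 5 the highest, and TAKI replicates 1 and 3 and TEKI replicate 3 were high as well. For Cyp2c54, TAKI mice 1 to 5 read 3.46, 0.97, 3.26, 2.22 and 2.46, TEKI mice 1 to 3 read 2.59, 2.15 and 3.1, and WT mice 1 to 5 read 2.02, 1.26, 2.21, 1.33 and 3.58. Cyp2c54 had the widest range of the block, 6.13-fold between those same 2 mice. Cyp2c44 had levels of 5.72, 3.98, 5.50, 4.73 and 4.53 in TAKI replicates 1 to 5, 5.05, 4.14 and 5.27 in TEKI replicates 1 to 3, and 4.44, 4.61, 5.05, 3.90 and 5.95 in WT replicates 1 to 5. Cyp2c44, listed in RefSeq as Cyp2c23, was also highest in WT replicate 5, and lowest in WT replicate 4. Pearson r after centring on genotype was 0.97 for Cyp2c29 with Cyp2c37, 0.99 for Cyp2c37 with Cyp2c39 and 0.99 for Cyp2c39 with Cyp2c54, with rho of 0.96, 0.99 and 0.99. Cyp2c44 had an r of 0.94, 0.93, 0.92 and 0.92 with Cyp2c29, Cyp2c37, Cyp2c39 and Cyp2c54. Members on other chromosomes also followed Cyp2c39, with an r of 0.94 for Cyp2j5, 0.93 for Cyp2d13 and 0.90 for Cyp2e1. Others did not, such as Cyp3a11 at -0.05 and Cyp2b9 at -0.30. These pairs too were picked after all had been seen. None of the 5 Cyp2c genes given here was called. In TAKI minus WT the differences ran from 0.10 ± 0.42 for Cyp2c44 to 0.39 ± 0.52 for Cyp2c54 (SE). In TEKI minus WT they were 0.39 ± 0.38 for Cyp2c29, 0.52 ± 0.45 for Cyp2c37, 0.55 ± 0.51 for Cyp2c39, 0.53 ± 0.60 for Cyp2c54 and 0.03 ± 0.49 for Cyp2c44. Within the slide that TEKI shares with WT replicate 5, these 5 values were -0.68, -0.53, -0.81, -0.97 and -1.12, each resting on that single WT mouse.

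Cyp2c38 and Cyp2c55 stood outside the block. The levels of Cyp2c38 were -0.91, -1.55, -0.56, -0.51 and -0.62 in the TAKI mice, -1.04, -0.71 and -0.89 in the TEKI mice and -1.31, -0.99, -1.16, -0.43 and -0.59 in the WT mice, in replicate order. Cyp2c38 lies beside Cyp2c39, with 82.0% of promoter bases identical when aligned with gaps allowed. The r of Cyp2c38 with Cyp2c39 was yet 0.45. With Cyp2c29 its r was 0.44 (rho 0.32), and -0.03 without the 2 mice farthest from the median of Cyp2c29. For Cyp2c55, TAKI mice 1 to 5 read -2.98, -2.07, -3.30, -1.59 and -3.0, TEKI mice 1 to 3 read -2.32, -2.56 and -2.62, and WT mice 1 to 5 read -3.24, -2.03, -2.77, -2.36 and -2.57. Cyp2c55, a CAR and PXR target known from the colon, was highest in TAKI replicate 4 and lowest in TAKI replicate 3. Their TAKI minus WT differences were 0.06 ± 0.22 and 0.00 ± 0.32, and their TEKI minus WT differences 0.02 ± 0.26 and 0.09 ± 0.37 (SE). The 2 Cyp2c members without values given by mouse were Cyp2c40, with a range of 5.91 to 7.05, and Cyp2c70, the muricholic acid enzyme, with a range of 4.34 to 5.99, both highest in WT replicate 5.

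The Cyp2d genes on chromosome 15 belong to the subfamily whose human member metabolises many psychoactive drugs, and 0 of them were called. Cyp2d9 had levels of 8.49, 7.89, 8.54, 7.78 and 8.24 in TAKI replicates 1 to 5, 8.23, 8.29 and 8.64 in TEKI replicates 1 to 3, and 8.08, 7.73, 8.40, 8.05 and 8.62 in WT replicates 1 to 5. The levels of Cyp2d10 were 8.31, 7.90, 8.33, 7.91 and 8.20 in the TAKI mice, 8.18, 8.19 and 8.41 in the TEKI mice and 7.60, 7.80, 8.23, 8.10 and 8.48 in the WT mice, in replicate order. Cyp2d9, a male-biased testosterone hydroxylase, and Cyp2d10 spanned 1.88-fold and 1.84-fold over all 13 mice. For Cyp2d22, TAKI mice 1 to 5 read 5.48, 4.86, 5.29, 4.60 and 4.95, TEKI mice 1 to 3 read 5.18, 5.29 and 5.47, and WT mice 1 to 5 read 5.09, 4.60, 5.32, 4.89 and 5.69. Cyp2d26 had levels of 9.09, 8.75, 9.13, 8.80 and 8.93 in TAKI replicates 1 to 5, 9.13, 8.99 and 9.35 in TEKI replicates 1 to 3, and 9.01, 8.81, 9.0, 9.20 and 9.38 in WT replicates 1 to 5. In all 4 genes TEKI replicate 3 and WT replicate 5 were among the 3 highest mice, and WT replicate 2 was among the 3 lowest. The TAKI minus WT differences were 0.01 ± 0.20, 0.09 ± 0.17, -0.08 ± 0.21 and -0.14 ± 0.13 for Cyp2d9, Cyp2d10, Cyp2d22 and Cyp2d26 (SE). The TEKI minus WT differences were 0.21 ± 0.23, 0.22 ± 0.19, 0.20 ± 0.25 and 0.08 ± 0.15.

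Cyp2e1, Cyp2f2, Cyp2g1, Cyp2r1 and Cyp2u1, each the only member of its subfamily, and Cyp2j5, gave 0 calls. The levels of Cyp2e1 were 8.59, 8.07, 8.85, 8.26 and 8.47 in the TAKI mice, 8.52, 8.47 and 8.87 in the TEKI mice and 8.37, 8.18, 8.28, 8.39 and 8.73 in the WT mice, in replicate order. Cyp2e1, the pericentral oxidase of ethanol and paracetamol, spanned 1.75-fold, with TAKI replicate 2 lowest and TEKI replicate 3 highest. For Cyp2f2, TAKI mice 1 to 5 read 8.05, 7.43, 7.73, 7.74 and 7.71, TEKI mice 1 to 3 read 7.64, 7.53 and 7.64, and WT mice 1 to 5 read 7.21, 7.81, 7.79, 7.53 and 7.74. Cyp2f2, which activates naphthalene and marks periportal hepatocytes, spanned 1.79-fold, with WT replicate 1 lowest and TAKI replicate 1 highest. Their TAKI minus WT differences were 0.06 ± 0.16 and 0.12 ± 0.14, and their TEKI minus WT differences 0.23 ± 0.18 and -0.01 ± 0.16 (SE). Cyp2g1 had levels of -0.97, -2.75, -1.95, -2.0 and -1.92 in TAKI replicates 1 to 5, -1.06, -2.61 and -1.13 in TEKI replicates 1 to 3, and -2.69, -2.57, -1.78, -2.26 and -0.03 in WT replicates 1 to 5. Cyp2g1, known from the olfactory mucosa, was among the 5 members of largest spread within genotypes, and WT replicate 5 stood far above the other WT mice. The levels of Cyp2r1 were 0.74, 0.22, 0.22, 0.24 and 0.01 in the TAKI mice, 0.40, 0.29 and 0.52 in the TEKI mice and 0.49, 0.10, 0.30, 0.14 and 0.60 in the WT mice, in replicate order. Cyp2r1, the vitamin D hydroxylase of the liver, ranged from 0.01 to 0.74 over the 13 mice. For Cyp2u1, TAKI mice 1 to 5 read 0.39, -0.57, -0.26, -0.29 and -0.14, TEKI mice 1 to 3 read 0.29, -0.17 and 0.44, and WT mice 1 to 5 read 0.41, -0.45, 0.12, -0.31 and 0.04. Cyp2u1, a fatty acid hydroxylase listed as male-biased, was highest in TEKI replicate 3 and WT replicate 1. Cyp2j5 had levels of 5.86, 5.29, 5.84, 5.34 and 5.46 in TAKI replicates 1 to 5, 5.60, 5.54 and 5.92 in TEKI replicates 1 to 3, and 5.53, 5.43, 5.50, 5.34 and 6.09 in WT replicates 1 to 5. Cyp2j5, an arachidonic acid epoxygenase of liver and kidney, was highest in WT replicate 5. The TAKI minus WT differences of Cyp2g1, Cyp2r1, Cyp2u1 and Cyp2j5 were -0.06 ± 0.52, -0.04 ± 0.14, -0.14 ± 0.21 and -0.02 ± 0.17 (SE). The TEKI minus WT differences were 0.26 ± 0.60, 0.08 ± 0.17, 0.23 ± 0.24 and 0.11 ± 0.19.

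Besides Cyp2c40 and Cyp2c70, the members not given by mouse were Cyp2a12, Cyp2d13, Cyp2j9, Cyp2j13 and Cyp2s1, and 0 of these 7 were called. Over the 13 mice Cyp2a12 ranged from 5.58 to 6.60, Cyp2d13 from 0.89 to 2.33, Cyp2j9 from 0.32 to 1.77, Cyp2j13 from 1.49 to 2.28 and Cyp2s1 from -3.21 to -1.93. In TAKI minus WT the 7 differences lay between -0.25, for Cyp2c70, and 0.12, for Cyp2j9. Their TEKI minus WT differences lay between -0.07, for Cyp2c70, and 0.28, for Cyp2j13.

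The Cyp3a genes on chromosome 5 include Cyp3a11, the main PXR target of mouse liver, and the female-biased Cyp3a16, Cyp3a41 and Cyp3a44. The levels of Cyp3a11 were 6.77, 7.30, 7.43, 7.53 and 7.24 in the TAKI mice, 6.74, 7.30 and 6.5 in the TEKI mice and 6.24, 7.10, 7.35, 7.05 and 7.33 in the WT mice, in replicate order. For Cyp3a16, TAKI mice 1 to 5 read 5.59, 6.06, 6.03, 6.03 and 5.74, TEKI mice 1 to 3 read 5.54, 5.91 and 5.44, and WT mice 1 to 5 read 4.88, 5.79, 5.89, 5.84 and 6.01. WT replicate 1 lay below the other 12 mice in both genes. Cyp3a41 had levels of 8.08, 8.57, 8.35, 8.38 and 8.10 in TAKI replicates 1 to 5, 7.97, 8.37 and 7.92 in TEKI replicates 1 to 3, and 7.52, 8.43, 8.41, 8.39 and 8.47 in WT replicates 1 to 5. The levels of Cyp3a44 were 6.45, 7.05, 6.98, 7.08 and 6.79 in the TAKI mice, 6.29, 6.82 and 6.18 in the TEKI mice and 5.84, 6.86, 6.67, 6.72 and 6.95 in the WT mice, in replicate order. The same mouse was lowest again, and TEKI replicate 3, TEKI replicate 1 and TAKI replicate 1 came next in all 4 genes. For Cyp3a13, TAKI mice 1 to 5 read 5.18, 4.84, 4.88, 4.75 and 5.06, TEKI mice 1 to 3 read 5.00, 4.76 and 5.38, and WT mice 1 to 5 read 5.88, 5.23, 4.81, 5.09 and 5.24. Cyp3a13, which lies apart from the cluster at 137892933 to 137925610, ran the other way, with WT replicate 1 highest. Cyp3a25 had levels of 6.37, 6.01, 6.25, 5.99 and 5.87 in TAKI replicates 1 to 5, 6.19, 6.00 and 5.93 in TEKI replicates 1 to 3, and 5.85, 6.03, 5.95, 6.20 and 6.35 in WT replicates 1 to 5. Cyp3a25 had the narrowest range of all 43 members, 1.43-fold. Pearson r after centring was 0.94 for Cyp3a11 with Cyp3a16, 0.98 for Cyp3a16 with Cyp3a41 and -0.90 for Cyp3a11 with Cyp3a13, with rho of 0.89, 0.90 and -0.79. Paralogues of this cluster are close in sequence, and the Cyp3a16 and Cyp3a44 promoters have 94.7% of bases identical when aligned with gaps allowed. Whether the probes of these genes also read each other's transcripts was not tested.

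No Cyp3a gene was called. The TAKI minus WT differences were 0.24 ± 0.23 for Cyp3a11, 0.21 ± 0.21 for Cyp3a16, 0.05 ± 0.19 for Cyp3a41, 0.26 ± 0.22 for Cyp3a44, -0.31 ± 0.19 for Cyp3a13 and 0.02 ± 0.13 for Cyp3a25 (SE). Without WT replicate 1 the first 4 were 0.04, 0.01, -0.13 and 0.07, and Cyp3a13 was -0.15. The TEKI minus WT differences were -0.17 ± 0.27, -0.05 ± 0.24, -0.16 ± 0.22, -0.18 ± 0.25, -0.20 ± 0.22 and -0.03 ± 0.15 in the same order. Without WT replicate 1 the first 5 of these were -0.36, -0.25, -0.34, -0.37 and -0.04. Within the slide that TEKI shares with WT replicate 5 all 6 were below 0 as well, at -0.49, -0.38, -0.38, -0.52, -0.19 and -0.31, each against that 1 WT mouse. WT replicate 1 was also the mouse with the highest acute phase genes, with the mean of 7 of them at 1.95 relative to WT, against -0.94 to -0.16 in TAKI, -0.26 to 0.64 in TEKI and -1.19 to -0.13 in the other WT mice. Its level of Saa3, an acute phase serum amyloid, was 8.59, and the next highest mouse, TEKI replicate 3, had 6.06. Hp, another of the 7, was saturated on all 13 arrays. It read 9.45 in WT replicate 1 and 9.35 to 9.73 in the other WT mice. Saa1 and Saa2 were saturated on 1 array each. The part of the acute phase in the Cyp3a levels was not tested.

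**Figure D4:**
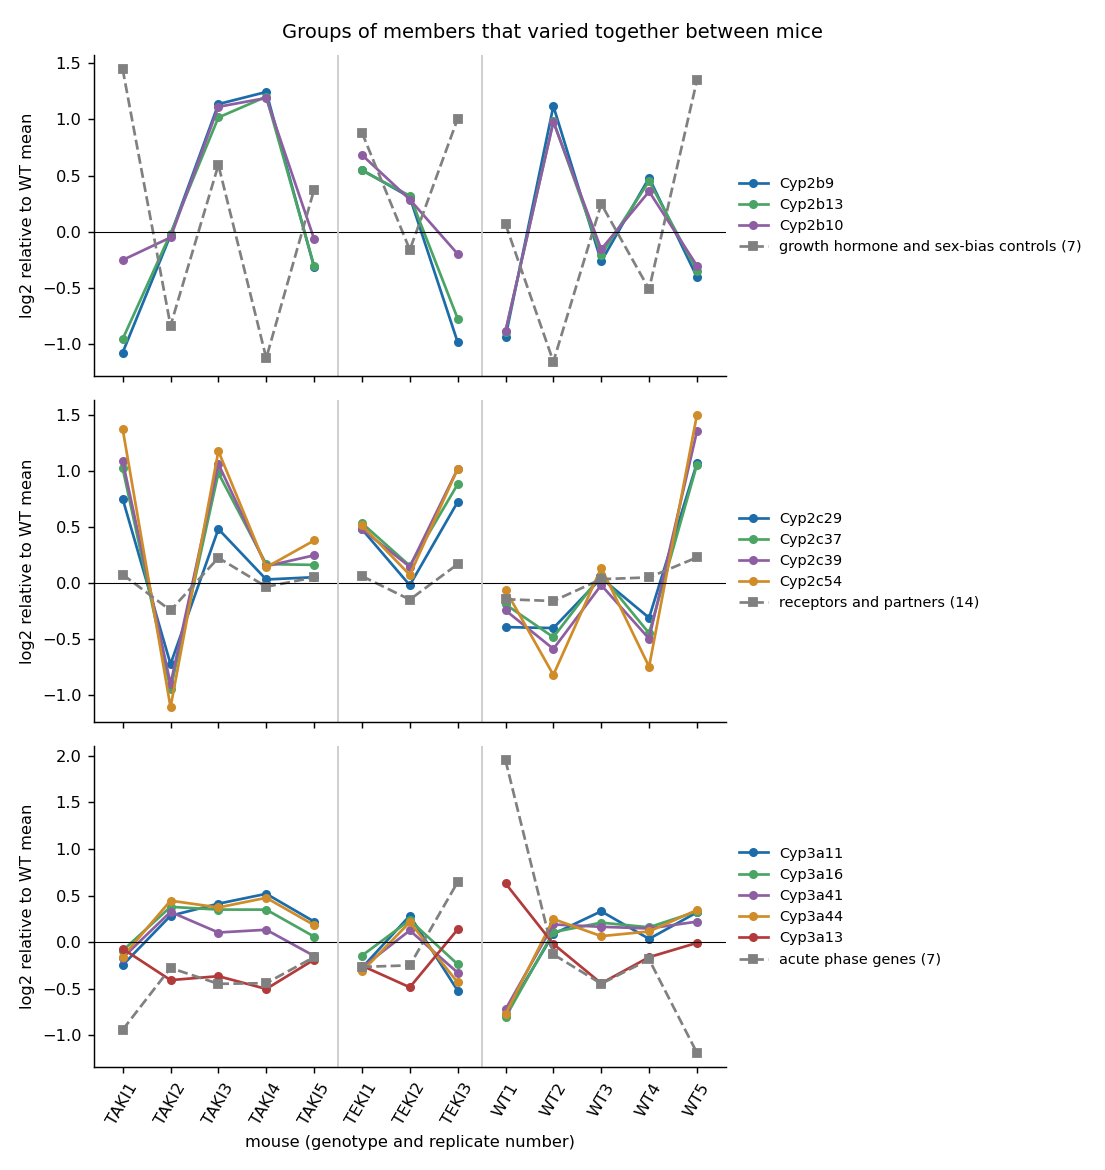
Levels of Cyp2b, Cyp2c and Cyp3a members in each mouse relative to the WT mean of the gene (log2), from TAKI on the left to WT on the right, with lines joining values of 1 gene and a grey dashed line for the mean of a list of other genes. Cyp2b9 and Cyp2b13 share their high and low mice and Cyp2b10 shares the 3 highest, the 4 Cyp2c genes share TAKI replicate 2 as the low and WT replicate 5 as the high mouse, and WT replicate 1 is low in 4 Cyp3a genes and high in Cyp3a13 and the acute phase genes.

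Over the whole set, members varied more between mice of 1 genotype than most genes did. The standard deviation within genotypes had a median of 0.40 over the 43 members, from 0.14 for Cyp2j6 to 0.89 for Cyp2c54, while it was 0.22 over the 15612 genes well above background on all 13 arrays. It was above that median in 38 of 43 members. It exceeded 0.8 in 4 members (Cyp2c54, Cyp2b9, Cyp2g1 and Cyp2b13), and in 2.20% of the 15612 genes. The extremes fell on few mice. WT replicate 5 was the highest mouse for 17 of 43 members, TAKI replicate 2 the lowest for 13 and WT replicate 1 the lowest for 12. Pairs of members of 1 subfamily had a median r of 0.45 over 100 pairs, and pairs of different subfamilies 0.25 over 803 pairs, with all pairs read from the same 13 arrays. Within subfamilies the median r was 0.82 for Cyp2a, 0.80 for Cyp2d, 0.47 for Cyp2j, 0.33 for Cyp2b, 0.31 for Cyp2c and 0.28 for Cyp3a, and the single Cyp1a pair had an r of -0.05.

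**Figure D5:**
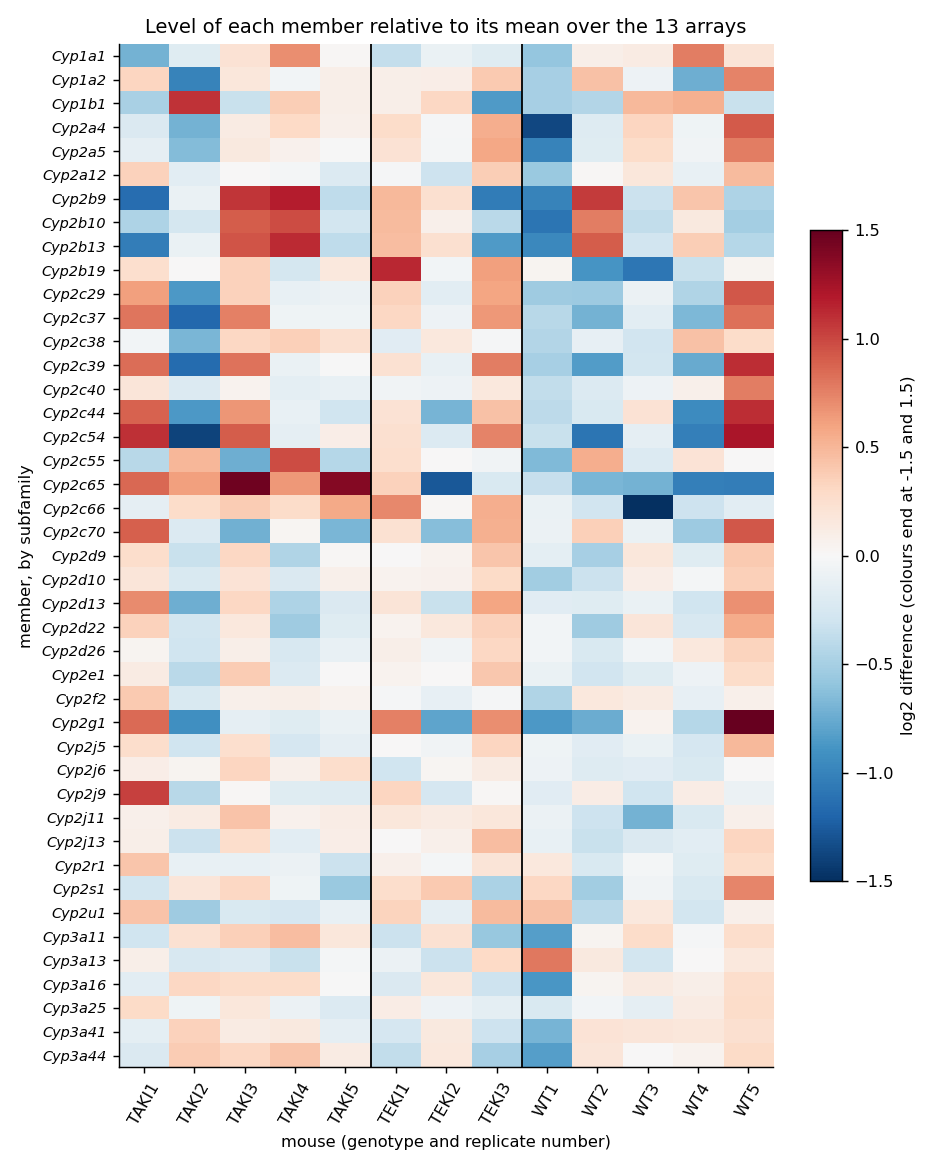
Level of the 43 members (rows, by subfamily) in the 13 mice (columns, TAKI, TEKI and WT from left to right) relative to the mean of each gene over all arrays, in log2 units. Columns stand out more than blocks of genotype do, with WT replicate 5 the highest mouse for 17 members and TAKI replicate 2 the lowest for 13, and in Cyp2c65, as with smaller differences in Cyp2j6 and Cyp2j11, all 5 TAKI mice lie above the mean of the gene.

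Grouped by role, no list held a called member. At most 3.41% of all genes were called in any comparison, so counts of 0 in lists this short say nothing about a role. Of the CAR and PXR inducible genes 9 were tested and 0 called, with a median TAKI minus WT difference of 0.12 and a median TEKI minus WT difference of 0.26. Of the 8 female-biased members 0 were called, with medians of 0.19 and -0.03, and of the 2 male-biased members, Cyp2d9 and Cyp2u1, 0 were called, with medians of -0.06 and 0.22. The 11 arachidonic acid epoxygenases gave 0 calls and medians of 0.12 and 0.10. The 7 pericentral members gave 0 calls and medians of 0.12 and 0.29. Over all genes the medians were 0.00 and 0.08. Of 7 other growth hormone dependent or sex-biased genes of liver 0 were called, but their mean level ranged widely, from -1.12 to 1.45 in TAKI, -0.16 to 1.01 in TEKI and -1.16 to 1.35 in WT mice. Hsd3b5, a male-specific steroid enzyme, was at 3.19 in TAKI replicate 1 and -5.25 in TAKI replicate 4, the lowest and the highest TAKI mouse for Cyp2b9. It was at -5.56 in WT replicate 2, the highest WT mouse for Cyp2b9. Other mice did not keep to that order. Hsd3b5 was at 0.28 in TAKI replicate 3 and -4.37 in TAKI replicate 2, where Cyp2b9 was at 5.26 and 4.10. It was at -0.23 in WT replicate 1, the lowest WT mouse for Cyp2b9, and at 3.01 in WT replicate 5. The mouse-to-mouse relation of these genes was not tested.

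The genes that serve these enzymes gave 0 calls. Of all genes tested, 2.78% were called in TAKI minus WT, 0.00486% in TEKI minus WT and 3.41% in TEKI minus TAKI. In lists this short a count of 0 or 1 lies near those shares, so it says nothing about a list as a whole. Of 14 receptors and partners, among them Ahr, Nr1i2 (PXR) and Nr1i3 (CAR), 0 were called in any of the 3 comparisons. The differences of Nr1i3 were -0.10 in TAKI minus WT and 0.29 in TEKI minus WT, and those of Nr1i2 were -0.03 and -0.05. Of 17 genes for electron donors and haem 0 were called, and 4 of 17 lay above 0 in TAKI minus WT and 14 of 17 in TEKI minus WT, where 50.6% and 63.4% of all genes did. Por was highest in WT replicate 5, at 8.05, as was Alas1, the first enzyme of haem synthesis, at 8.48. Of 15 other oxidising and hydrolysing enzymes 0 were called. Among the 24 P450 genes of other families that were tested, 1 was called, Cyp27b1, the renal vitamin D hydroxylase, at 1.19 ± 0.29 (SE) in TAKI minus WT with an adjusted p of 0.0497 by limma and its probe in row 62. Of 25 Ugt and Sult genes, which conjugate the products of P450s, 0 were called.

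For 21 members the array held 23 other probes, 18 of them bright enough to be tested. The 15 that were well above background on all 13 arrays followed the brightest probe of their gene with a median r of 0.95, from 0.41 for a Cyp2d22 probe to 1.00 for Cyp2b9. The sign of the TAKI minus WT difference was the same in 11 of 18 probes, of TEKI minus WT in 13 and of TEKI minus TAKI in 14. The dim Cyp3a44 probe in row 479, well above background on 10 arrays, differed in sign from the brightest in all 3 comparisons. It gave -0.50 against 0.26 in TAKI minus WT, 0.16 against -0.18 in TEKI minus WT and 0.65 against -0.44 in TEKI minus TAKI. In TAKI minus WT the widest disagreement was in Cyp2j13, where the dim probe in row 319, well above background on 7 arrays, gave 1.46 and the brightest probe, in row 5, gave 0.09. Over the 3 comparisons it was in Cyp2j11, where the dim probe in row 485, well above background on 8 arrays, gave 2.0 in TEKI minus WT and the brightest probe, in row 379, gave 0.41. That dim probe read -1.20 in TEKI replicate 1 and -4.81 and -4.13 in TEKI replicates 2 and 3.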

How the data were processed

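Per the labels, total RNA of male liver was purified on columns with DNase and labelled with Cy3 for 1-colour Agilent arrays. The deposited values are spot intensity on a linear scale, made by the authors with Agilent Feature Extraction 9.5 per the submitters' processing notes, and per the file headers they are background-subtracted but unscaled across arrays. Scanner output and deposited table agreed in every intensity (largest difference 0). The members and lists were chosen with earlier results of these data known.

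Levels are log2 intensities less the 75th percentile of their array, averaged over the spots of a probe. For each gene name the brightest probe entered the test if 3 or more arrays had it well above background, as 20577 of 27962 genes did. One linear model of the 3 genotypes over 13 arrays (10 residual degrees of freedom) was fitted with limma 3.58.1 in R 4.3.3, with Benjamini-Hochberg adjustment over all genes tested and a threshold of 0.05. All adjusted p-values are from limma. The model was tested on simulated data. Python 3.11.15, pandas 2.3.3 and matplotlib 3.10.9 were used for tables and figures.

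Members given by mouse were those past the threshold, the 3 of smallest p in each comparison, the 5 of largest and 3 of smallest spread, and a list of main liver P450s. All 43 members were found in RefSeq (GRCm38.p6), 41 by symbol and 2 by synonym, and 37 had a promoter entry. Probe coordinates in the files were not used, since the sources used here do not give their build. Same-numbered mice were not treated as pairs, since 5 of 11 correlations between them exceeded 0.1 (range -0.23 to 0.32). Alternatives were other scalings, background correction with an offset of 50, filters, probe choices, spread estimates, array weights, slide and replicate blocks, and leaving out each array.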

Additional observations from a re-analysis of the deposited data

Results flagged for a closer look

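Among 86 groups of 5 mice examined, 1 mouse stood far from the rest of its genotype in 9, or 10.5%. Chance gives about 1 in 20 for independent groups. Members varied together in the same mice, so these groups are not independent and the rates do not test for an excess. Of the 9 groups, 4 were Cyp3a genes in the same mouse. WT replicate 1 was low in Cyp3a11 at 6.24 (next mouse 7.05) and in Cyp3a16 at 4.88 (5.79). It was also low in Cyp3a41 at 7.52 (8.39) and in Cyp3a44 at 5.84 (6.67). WT replicate 5 was high in Cyp2j5 at 6.09 (5.53) and in Cyp2d13 at 2.30 (1.52). WT replicate 3 was low in Cyp2c66 at -4.85 (-3.36). TAKI replicate 2 was low in Cyp1a2 at 2.45 (3.41), and TAKI replicate 3 was high in Cyp2j11 at -1.86 (-2.17). TEKI, with 3 mice, was not examined in this way.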

How the results depend on the processing

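The count of members called in TAKI minus WT was 1 under 24 of 25 alternatives and 4 with array weights, where Cyp2c66, Cyp2j6 and Cyp2j11 joined Cyp2c65. In TEKI minus WT it was 0 by limma under all 27, against 3 members at an unadjusted p under 0.05 as reported, where 2361 of 20577 genes had one. In TEKI minus TAKI it was 1 as reported and 0 with normexp background correction, only the groups compared, no filter on dim probes, a random slide block and the replicate block, and it ranged from 0 to 1 when 1 array was left out, with the call lost in 12 of 13 cases. The replicate block, added although the numbers do not pair the mice, gave 1, 0 and 0 members in the 3 comparisons. Cyp2c65 had TAKI minus WT differences of 0.71 to 1.97 (adjusted p 0.000688 to 0.0309) and TEKI minus TAKI differences of -1.75 to -0.42 (0.00227 to 0.169). Calls over all genes ranged from 243 to 2261 in TAKI minus WT, from 0 to 98 in TEKI minus WT (98 without TEKI replicate 2, 21 without WT replicate 5) and from 297 to 4212 in TEKI minus TAKI, where 72.2% were higher in TEKI as reported, 43.5% with quantile normalization and 96.4% with normexp. Median scaling moved the median difference of all genes to -0.15 in TAKI minus WT and to -0.33 in TEKI minus WT, and the unscaled table to 0.22 in TAKI minus WT. Of 2769 member values under alternatives, 285 not called changed sign, 43 of them with median scaling, and 20 of 36 TEKI minus WT values did so within slide 3. Cyp2c65 was dim on every array, and only 3 TEKI mice bear on its level in that genotype. The cause of each change was not tested.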
